A study of Mus musculus with 9 samples.

Results

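Chromatin regions away from promoters that were called in nearly every Sox2-EGFP+ list of the embryonic mouse cochlea, from E12 on, and in no Sox2-EGFP- list are described here. The members were chosen by peak presence. Peaks of all 9 deposited lists were merged where they lay within 100 bp of each other on the autosomes, and a list counted as present where a peak of it overlapped the merged region by 1 bp. A member has a peak in 5 or 6 of the 6 Sox2-EGFP+ lists and in none of the 3 Sox2-EGFP- lists, and lies clear of promoters, taken as the stretch that begins 1000 bp before a protein-coding transcription start site and ends 100 bp after it. This rule kept 1706 of 53848 distal regions (3.17%), out of 68078 merged regions in all. Since at most 1 list can be lacking and 2 of the 6 are E12 lists, the rule itself gives every member a peak in at least 1 E12 list, and 543 members have one in both.

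Open chromatin was measured by ATAC-seq in cells sorted by fluorescence from cochlear ducts of embryos of the strain B6;129S-Sox2tm2Hoch/J, in which EGFP is expressed from the Sox2 locus of heterozygous embryos, so every group here carries 1 targeted Sox2 allele. Sox2-EGFP+ cells, sorted from the brightest gate, were profiled at E12, E14.5 and E16 with 2 replicates each, and Sox2-EGFP- cells, from the dimmest gate, at E14.5 with 1 replicate and at E16 with 2. Each Sox2-EGFP+ replicate pooled the ducts of a litter, and the cells between both gates were not profiled. No E12 Sox2-EGFP- list was analysed here, so absence from Sox2-EGFP- cells refers to E14.5 and E16. Absence means only that no retained peak lay there, since peaks seen in 1 Sox2-EGFP- library alone had been dropped from the lists. The Sox2-EGFP- lists held 23302 to 23899 peaks, against 7577 to 66332 in the Sox2-EGFP+ lists. Samples were grouped by title and source name. For 3 of the 9 libraries, E16 Sox2-EGFP+ replicate 2 and both E16 Sox2-EGFP- replicates, a further cell type tag goes against these. Of the regions in the E16 Sox2-EGFP- lists, 88.9% of replicate 1 and 88.5% of replicate 2 were also in the E14.5 Sox2-EGFP- list, whose labels are free of the conflict. They also shared 84.8% and 84.4% with the longer E14.5 Sox2-EGFP+ list, replicate 1, while E16 Sox2-EGFP+ replicate 2 shared 99.7% with that list and 29.3% with the E14.5 Sox2-EGFP- list. Of the E14.5 Sox2-EGFP- regions, 92.8% and 89.8% were in the E16 Sox2-EGFP- lists, of 21816 and 21194 regions, and 85.6% in the E16 Sox2-EGFP+ replicate 2 list, of 61059 regions. The lists had been restricted to peaks found again within the same labelled cell type. This raises the overlap between Sox2-EGFP- lists, so these shares do not check the labels. By title, E16 Sox2-EGFP+ replicate 2 held 65870 peaks and the E16 Sox2-EGFP- replicates 23848 and 23899. The study's sample table gives peak numbers in the same order under these labels. Without these 3 libraries the rule, with 4 of the 5 remaining Sox2-EGFP+ lists required, gave 1810 regions. By construction these hold all 1706 members, so this count does not check the labels either.

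Sox2 is an HMG-box transcription factor that marks the prosensory domain, the strip of the cochlear duct from which hair cells and supporting cells of the organ of Corti arise. ATAC-seq uses the Tn5 transposase to cut accessible DNA, and a peak marks a place where cuts pile up. Distal accessible regions are where enhancers are found, and the short sequences within them are bound by transcription factors: Sox factors bind CATTGT and CAAAG-like cores, Gata3 acts early in the otic epithelium, Tead factors are the DNA partners of Yap and Taz, and grainyhead-like (Grhl) factors act in epithelia.

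The sequences of 6 members are shown for their matches to the 5 main motifs, and 5 of the 6 carry a combination of them. Each run is 300 bases of mm9, plus strand, 5′ to 3′, centred on the summit, which is the median position of the highest signal over the lists. Capitals mark matches on either strand to the motifs, spelled with N where more than 1 base is allowed: Sox CCNTTGTN (A or T, then C or T), Six2 GNAANNTGA (A or T, then C or T and a base other than G), Gata AGATAANN (C or G, then A or G), Tead NGGAATGN (A or T, and C or T) and Grhl AACNNGTT (C or T, then G or T). The regions near Nhsl1, Slc6a20b and Specc1l held 3 different motifs each, the highest number among members, and had the best mean rank of the 10 members that did. The region near Trpv4 was among the 6 highest-ranked, and those near Sox9 and Sox2 lie next to prosensory regulators.
Nhsl1, chr10:18202512-18202811: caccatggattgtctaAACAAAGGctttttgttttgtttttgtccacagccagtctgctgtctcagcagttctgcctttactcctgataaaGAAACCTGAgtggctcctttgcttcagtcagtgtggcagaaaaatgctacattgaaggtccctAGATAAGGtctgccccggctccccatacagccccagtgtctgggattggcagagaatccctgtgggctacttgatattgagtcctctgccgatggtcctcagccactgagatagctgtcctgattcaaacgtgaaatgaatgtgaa
Slc6a20b, chr9:123547739-123548038: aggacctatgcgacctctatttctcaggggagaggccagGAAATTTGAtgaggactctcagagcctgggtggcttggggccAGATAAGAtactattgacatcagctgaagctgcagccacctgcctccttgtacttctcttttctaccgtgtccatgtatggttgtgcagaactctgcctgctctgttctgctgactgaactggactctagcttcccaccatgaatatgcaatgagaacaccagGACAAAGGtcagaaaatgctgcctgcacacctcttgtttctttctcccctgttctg
Specc1l, chr10:74628826-74629125: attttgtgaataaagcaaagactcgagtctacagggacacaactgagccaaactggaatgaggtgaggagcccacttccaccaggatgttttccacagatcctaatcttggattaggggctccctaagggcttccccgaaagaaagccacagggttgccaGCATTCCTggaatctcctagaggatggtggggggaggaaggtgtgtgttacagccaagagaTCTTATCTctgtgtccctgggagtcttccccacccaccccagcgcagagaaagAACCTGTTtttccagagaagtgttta
Trpv4, chr5:115114779-115115078: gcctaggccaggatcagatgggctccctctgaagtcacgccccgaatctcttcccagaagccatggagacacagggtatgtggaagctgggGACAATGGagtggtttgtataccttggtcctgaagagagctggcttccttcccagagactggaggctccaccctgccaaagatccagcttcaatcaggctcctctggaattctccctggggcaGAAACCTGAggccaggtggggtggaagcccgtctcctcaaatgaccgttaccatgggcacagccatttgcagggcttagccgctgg
Sox9, chr11:112573028-112573327: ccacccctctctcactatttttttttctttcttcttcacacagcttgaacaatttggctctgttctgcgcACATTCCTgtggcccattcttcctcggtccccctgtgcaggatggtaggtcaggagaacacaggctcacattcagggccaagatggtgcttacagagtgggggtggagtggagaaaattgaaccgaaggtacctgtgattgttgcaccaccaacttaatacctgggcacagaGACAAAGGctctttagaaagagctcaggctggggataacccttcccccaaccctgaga
Sox2, chr3:34938840-34939139: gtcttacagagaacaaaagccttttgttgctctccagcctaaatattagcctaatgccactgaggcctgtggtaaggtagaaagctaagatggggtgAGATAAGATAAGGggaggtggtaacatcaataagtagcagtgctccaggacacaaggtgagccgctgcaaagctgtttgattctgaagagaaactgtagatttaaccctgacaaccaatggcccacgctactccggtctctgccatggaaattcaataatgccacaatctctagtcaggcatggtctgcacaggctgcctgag

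In the Nhsl1 region the Gata match lay 8 bp from the summit, the Six2 match 54 bp and the Sox match 130 bp. The Trpv4 region had a Sox match 55 bp to one side of the summit and a Six2 match 68 bp to the other. The Sox9 region, 70.4 kb upstream of the start of this Sox factor of the otic epithelium, had a Tead match 76 bp and a Sox match 96 bp from the summit. In the Sox2 region, 390 kb downstream of the Sox2 start, both Gata matches overlap each other, with centres 49 and 44 bp from the summit. The Nhsl1 and Sox9 regions had a peak in all 6 Sox2-EGFP+ lists, the Slc6a20b region lacked one in E12 replicate 1, and the Sox2 region lacked one in E12 replicate 2.

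Membership differed between lists mainly at E12. Of the 1706 members, 1489 (87.3%) had a peak in E12 replicate 1 and 760 (44.5%) in E12 replicate 2. The E14.5 lists held 1704 and 1667 of them, and the E16 lists 1695 and 1706. E12 replicate 2 was the shortest list, with 7577 peaks, followed by E12 replicate 1 with 13817, while the E14.5 lists held 66332 and 22962 peaks and the E16 lists 39314 and 65870. Members made up 33.8% and 37.6% of the distal regions of the E12 lists, and between 3.42% and 17.1% of those of the other 4 Sox2-EGFP+ lists. All 6 lists had a peak in 491 members, and 1215 members lacked 1 list, which was E12 replicate 2 for 946, E12 replicate 1 for 217, E14.5 replicate 2 for 39, E16 replicate 1 for 11 and E14.5 replicate 1 for 2. Just outside the threshold lay 3619 distal regions with 4 Sox2-EGFP+ lists and no Sox2-EGFP- list, of which 710 had an E12 peak. When 1 E12 list was left out and 4 of the other 5 were required, the number of regions was 4743 without replicate 1 and 5184 without replicate 2, and at a deposited -log10 q of at least 5 it was 764.

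**Figure D1:**
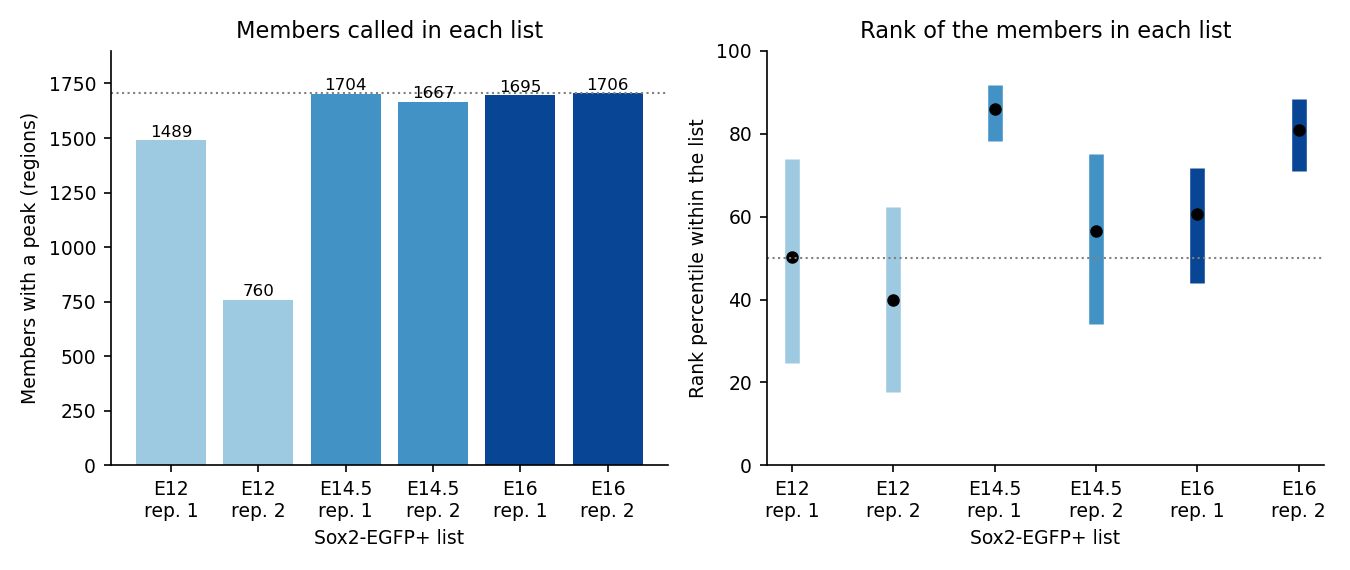
Left, number of the 1706 members (dotted line) with a peak in each Sox2-EGFP+ list; right, rank percentile of the members' highest peak by -log10 p within each list, with the median (point) and the interquartile range (bar), where 50 (dotted line) is the middle of a list. E12 replicate 2 held 760 members and the other lists 1489 to 1706; the median percentile was lowest, 40.0, in E12 replicate 2 and highest, 86.0, in E14.5 replicate 1.

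Of the distal regions in 5 or 6 Sox2-EGFP+ lists, 49.3% had no Sox2-EGFP- peak and are the members, and 1487 had a peak in all 3 Sox2-EGFP- lists and 268 in 2. The lists had been restricted to peaks found again in a second sample of the same cell type, so no such region had a peak in exactly 1 Sox2-EGFP- list. From the side of E12, 5168 distal regions had an E12 peak. Of these, 40.1% also had a Sox2-EGFP- peak at E14.5 or E16, 33.0% were members, and the other 1388 lacked a Sox2-EGFP- peak but were in 4 or fewer Sox2-EGFP+ lists. A Sox2-EGFP- peak lay within 1000 bp of 40 members (2.34%), and the median gap was 24070 bp. For the 36381 distal regions with neither an E12 nor a Sox2-EGFP- peak that were in 2 or 3 of the later Sox2-EGFP+ lists, termed called after E12, the shares within 1000 bp and the median gap were 2.47% and 25756 bp.

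Peak height was read from fold enrichment and rank, both of which come from the peaks that chose the members. Fold enrichment, the height of a peak over the background modelled by the peak caller, had a median over members of 5.73 and 5.43 in the E12 lists, 11.1 and 4.51 at E14.5, and 6.54 and 7.83 at E16. The medians of all peaks of the same lists were 5.56, 5.6, 7.75, 4.28, 5.6 and 5.61. As rank percentiles by -log10 p within a list, where 100 is the highest peak, the members' medians were 50.3 and 40.0 at E12, 86.0 and 56.5 at E14.5, and 60.7 and 80.9 at E16. Averaged over the lists of a region, the median percentile was 63.3 in members, 37 in all distal regions and 31.2 in regions called after E12. The E14.5 replicates differed widely, and the longer list of each later stage had the higher median, so no order over stages can be read from these medians. Over the 491 members in all 6 lists, the Spearman correlation of -log10 p between 2 lists, given as a description over regions that share a genome and peak caller, was between 0.52 and 0.64 among the 4 later lists, 0.29 between both E12 lists, and 0.20 to 0.41 between an E12 list and a later one.

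Members were wide and lay within introns or between genes. Their median width was 813 bp (interquartile range 672 to 976 bp, range 217 to 1987 bp), against 516 bp for all distal regions, 472 bp for regions called after E12, and 874 bp for the 1144 regions in 5 or 6 Sox2-EGFP+ lists that had a Sox2-EGFP- peak but were not in all 9 lists. A merged region spans the peaks of all lists present, so width and number of lists move together. By the region centre, 849 members (49.8%) were intergenic, 807 (47.3%) intronic, 27 in a coding exon and 23 in an untranslated region, with shares over all distal regions of 51.0%, 44.5%, 2.91% and 1.58%. The median distance to the nearest protein-coding start was 36.2 kb, and 23.7% of members lay over 100 kb away, against 32.0 kb and 21.5% for all distal regions. GC content in the 300 bp window had a median of 51.7% in members and 59.0% in the 1144 regions with a Sox2-EGFP- peak, whose median number of CpG was 12 against 4 in members. The summits of a member's lists spanned a median of 126 bp, and in 637 members (37.3%) they lay within 100 bp.

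The Sox motif was the most common of the 5 in the members. It was found in 357 of 1706 members (20.9%, 95% Wilson interval 19.1 to 22.9), in 12.6% of regions called after E12 (12.3 to 13), in 9.79% of the 1144 regions of the same number of lists with a Sox2-EGFP- peak (8.2 to 11.6), in 6.8% of the regions called in Sox2-EGFP- lists alone (6.04 to 7.65) and in 12% of all distal regions. Windows of the same length 5 kb to either side of the members held it in 6.15% (5.4 to 7.01), near the 5.62% around all distal regions. Regions in 4 Sox2-EGFP+ lists, just outside the rule, had a share of 15.3% (14.2 to 16.5). These intervals cover counting error only, and the regions share their libraries.

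For the other motifs the shares were compared with the same classes. Tead matches were in 11.8% of members (10.4 to 13.5) against 8.93% of all distal regions, Gata matches in 7.33% (6.18 to 8.66) against 5.17%, Grhl matches in 4.98% (4.05 to 6.12) against 3.65%, and Six2 matches in 7.97% (6.78 to 9.35) against 7.12%. In the 1144 regions with a Sox2-EGFP- peak the shares were 8.04%, 2.01%, 1.75% and 4.63%, so Gata and Grhl differed there by a larger ratio than Sox. Regions in 4 Sox2-EGFP+ lists had 9.98%, 5.19%, 4.56% and 7.18% for Tead, Gata, Grhl and Six2. The Grhl and Six2 shares lay within the members' intervals, and the Tead and Gata shares below them. In regions called after E12 the shares were 8.54%, 6%, 3.96% and 7.81%, and Six2 alone lay within. Not every class was below the members. Tead matches were in 11.2% of regions in Sox2-EGFP- lists alone (10.2 to 12.3), within the members' interval, and regions called at E12 in 2 or 3 Sox2-EGFP+ lists had 13.1% for Tead, 8.41% for Gata and 8.55% for Six2, close to or above the members. The order for Six2 depended on the window, since within 200 bp the shares were 4.81% of members and 5.11% of all distal regions. With 1 mismatch allowed, 83.5% of members and 70.7% of all distal regions held a Sox match, and the Tead shares were 63.5% and 64.5%. The Zeb motif, an E-box CAGGTNNNN bound by repressors of epithelial genes, was in 11.3% of members (9.9 to 12.9) against 7.69% of all distal regions, 4.9% of the 1144 regions and 1.66% of those in Sox2-EGFP- lists alone. It was at 11.7% (9.45 to 14.3) in regions called at E12 in 2 or 3 lists and at 10.5% (9.54 to 11.5) in regions in 4 Sox2-EGFP+ lists, close to the members. The motif of LIM homeodomain factors such as Isl1, CTAATNG, was in 7.15% of members (6.02 to 8.47) and 4.96% of all distal regions. The motif of the insulator protein Ctcf was in 2 members (0.117%, 0.0322 to 0.426), against 1.82% of all distal regions and 1.90% of those called after E12. It was as rare in regions in Sox2-EGFP- lists alone, at 0.107%. The GC-box CCCCGCC of Sp and Klf factors was in 5.10% of members and 24.0% of the 1144 regions with a Sox2-EGFP- peak, which were richer in GC.

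**Figure D2:**
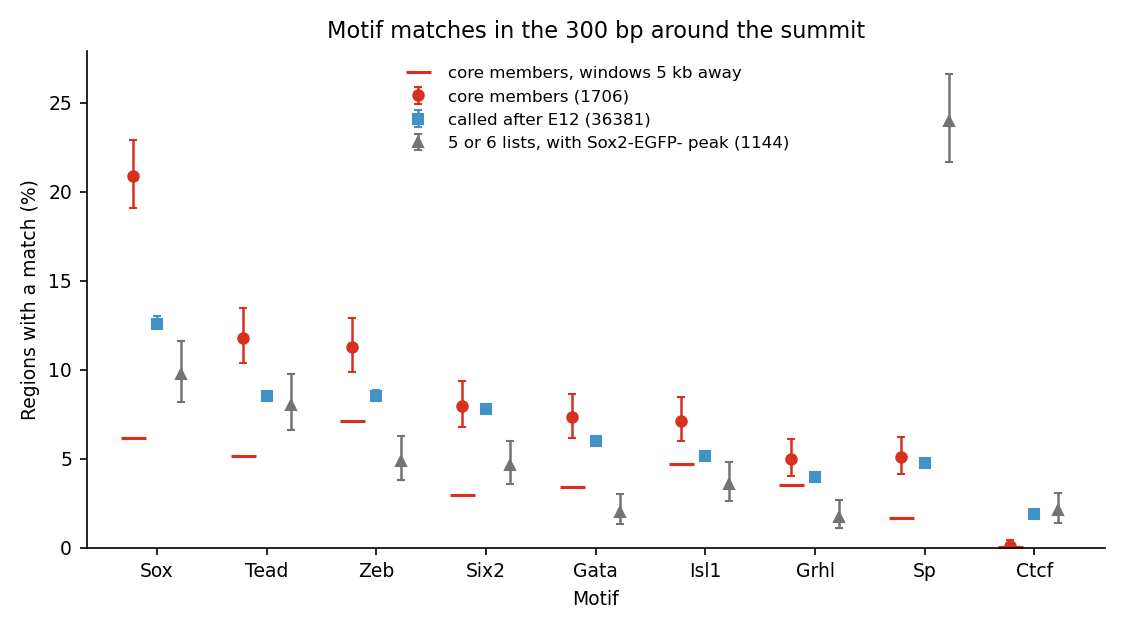
Share of regions with at least 1 motif match in the 300 bp window around the summit, for members, for distal regions called after E12, and for distal regions in 5 or 6 Sox2-EGFP+ lists with a Sox2-EGFP- peak, with 95% Wilson intervals as bars; dashes give windows 5 kb from the members. The Sox motif stood at 20.9% in members, 12.6% after E12 and 9.79% with a Sox2-EGFP- peak, and the Ctcf motif at 0.117% in members.

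At least 1 of the 5 motifs was in 754 members (44.2%) and in 31.8% of all distal regions. Of the members, 613 held 1 of the 5 motifs, 131 held 2 and 10 held 3. Most pairs of motifs occurred about as often as the product of their single shares gives: Sox and Six2 were together in 27 members against 28.5, Sox and Gata in 27 against 26.2, and Sox and Tead in 36 against 42.3. Sox and Grhl were together in 10 members against 17.8.

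Sox matches crowded the summit. In members their density was 1.11 matches per kb within 50 bp of the summit, 0.715 from 50 to 100 bp, 0.51 from 100 to 150 bp and 0.22 from 250 to 500 bp. In regions called after E12 the density within 50 bp was 0.612 per kb, and beyond 250 bp it was 0.203, so both classes met away from the summit. Tead matches followed with 0.533 per kb within 50 bp and 0.213 beyond 250 bp. Gata matches fell less steeply, with 0.264 per kb within 50 bp, 0.275 from 100 to 150 bp and 0.149 from 250 to 500 bp. Six2 matches in members were at 0.299 per kb within 50 bp, 0.193 from 50 to 100 bp and 0.363 from 100 to 150 bp, resting on 51, 33 and 62 matches.

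**Figure D3:**
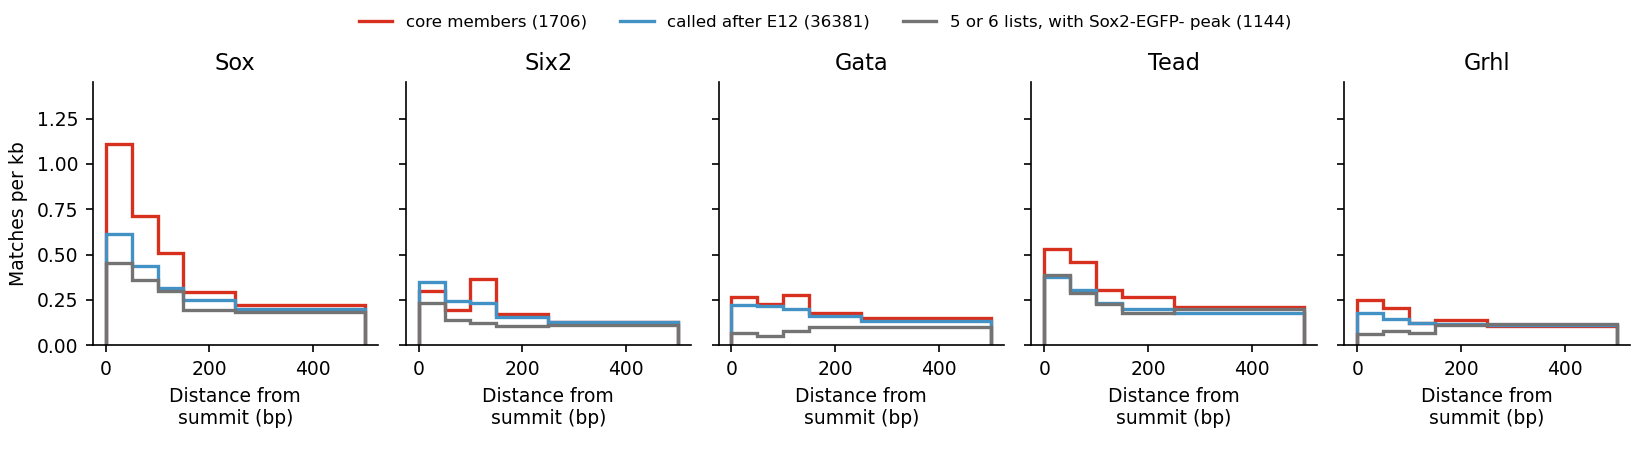
Motif matches per kb against the distance of the match from the summit, in bins that end at 50, 100, 150, 250 and 500 bp, for members (red), distal regions called after E12 (blue) and distal regions in 5 or 6 Sox2-EGFP+ lists with a Sox2-EGFP- peak (grey). Sox matches reached 1.11 per kb within 50 bp of the members' summits, against 0.612 in regions called after E12 and 0.455 in those with a Sox2-EGFP- peak.

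Some members held pairs of the Sox core facing each other, CAAAG followed by CTTTG with a few bases between. This arrangement was looked for after the sequences of members had been seen, so its counts are a description. With 3 to 5 bases between, such a pair was in 30 members (1.76%, 1.23 to 2.5) and in 0.381% of windows 5 kb from the members. It was in 0.800% of regions called after E12 and in 0.268% of regions in Sox2-EGFP- lists alone. Of the 1144 regions with a Sox2-EGFP- peak, 1.14% held one (0.665 to 1.93), against 0.0437% of windows 5 kb away. That interval overlaps the members' interval. The ratio to the windows 5 kb away was 26 in these regions, 4.62 in members and 3.44 in regions called after E12, so the pair is not particular to members. The spacing of 4 bases accounted for 18 members, 3 bases for 8 and 5 bases for 4, while 1, 2, 6 and 7 bases were found in 2, 4, 4 and 1 members. The reverse order, CTTTG followed by CAAAG, was in 0 members at 3 to 5 bases, which allows a share of up to 0.176% (3 counts of 1706). At the other spacings up to 12 bases it was in 0 to 4 members each, with 4 at 9 bases. At 3 to 5 bases, 2 cores in the same direction were in 16. A single core on either strand was in 70.8% of members and 66.1% of all distal regions. Members with a facing pair had a higher mean rank percentile than the other members in 5 of the 6 lists, with differences from 4.78 to 9.91 points, and in E12 replicate 2 the means were 41.6 and 41.7.

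All 4 members nearest to Notch1, which encodes a receptor of the Notch pathway, held such a pair, and no other gene was nearest to more than 1 member with one. The 12 distal regions nearest to Notch1 held 4 with a facing pair, and these were the 4 members. The windows of these members were among the sequences seen before the search for such pairs, so their count is a description and no separate support. The member of Dtx4, a deltex protein that regulates Notch signalling, held one too. They are shown with 20 bases to each side (mm9, plus strand, 5′ to 3′), with the facing cores in capitals, together with the regions near Gmds and Kcnh8, the best-ranked of those with a facing pair and all 6 lists.
Notch1, chr2:26374633-26374685: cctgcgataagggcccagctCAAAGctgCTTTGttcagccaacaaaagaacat
Notch1, chr2:26388864-26388916: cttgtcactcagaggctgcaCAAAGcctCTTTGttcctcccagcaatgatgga
Notch1, chr2:26391295-26391348: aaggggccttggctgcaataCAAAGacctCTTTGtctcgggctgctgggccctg
Notch1, chr2:26396490-26396543: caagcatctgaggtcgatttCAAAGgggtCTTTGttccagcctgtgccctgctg
Dtx4, chr19:12562818-12562872: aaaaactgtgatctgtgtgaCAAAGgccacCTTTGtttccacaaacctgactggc
Gmds, chr13:32271853-32271906: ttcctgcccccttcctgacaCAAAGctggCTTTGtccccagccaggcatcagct
Kcnh8, chr17:52741627-52741680: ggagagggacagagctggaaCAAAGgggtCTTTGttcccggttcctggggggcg

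The 4 Notch1 members lay upstream of the gene between 2.45 and 24.6 kb from its start, and 3 of them stood within 8746 bp. The one 2.45 kb upstream (chr2:26374254-26375016, 763 bp) was the highest, with a fold enrichment of 8.03 in E12 replicate 1, 11.6 and 4.45 at E14.5, and 10.9 and 13 at E16, and no peak in E12 replicate 2. The one 16.8 kb upstream (chr2:26388662-26389300) had a peak in all 6 lists, with 5.4 and 5.04 at E12, 7.20 and 2.65 at E14.5, and 4.01 and 4.51 at E16. The distances of the pairs from the summits were 14, 30, 29 and 7 bp in the order of the sequences. The Dtx4 region (chr19:12562572-12563783), in an intron 13.3 kb downstream of the start, had a fold enrichment of 6.05 and 5.43 at E12, 11.9 and 4.84 at E14.5, and 8.88 and 10.9 at E16, and its pair is made of 2 full Sox motif matches. Of the 21 Notch pathway genes in the list, these were the 2 with a member, and 5 members (0.293%) were nearest to a gene of the list, against 0.256% of all distal regions.

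Whether members with a motif ranked higher was asked within each of the 6 Sox2-EGFP+ lists. Sequence played no part in the choice of members, but the ranks come from the peaks that chose them. The lists also rank the same regions, with Spearman correlations of 0.20 to 0.64 over 491 members, so they are not independent. The p-values below therefore describe the spread between these lists only. For each motif the mean rank percentile of members without it was subtracted from that of members with it, and the 6 differences were tested with a two-sided exact sign-flip permutation test, whose smallest p is 0.0312. For 19 motifs with at least 10 members each, 3 reached the smallest unadjusted p. None passed after Benjamini-Hochberg adjustment, which could not have been met unless 12 or more of the 19 motifs had reached the smallest p, so the adjusted values say little. Members with a Gata motif were lower in 6 of 6 lists, by a mean of -3.15 points (SD 2.06, 125 members, exact p = 0.0312, adjusted p = 0.198). The single differences were -4.29 and -5.99 at E12, -0.153 and -3.06 at E14.5, and -3.82 and -1.59 at E16. Over all distal regions the Gata difference was also below 0 in all lists, with a mean of -4. Ranked by fold enrichment, the members' difference was -2.08 (exact p = 0.188), and in the 200 bp window it was -5.33. The 22 members with an Ebf motif were 5.16 points higher (SD 2.29, 6 of 6 lists, exact p = 0.0312, adjusted p = 0.198), a difference that was -0.171 when lists were ranked by fold enrichment and -0.435 among members in all 6 lists. Over all distal regions it was 0.0542, higher in 3 of 6 lists. The 31 members with an Ets motif, CAGGAAGT, were 4.22 points higher (SD 2.94, 6 of 6 lists, exact p = 0.0312, adjusted p = 0.198). Among members in all 6 lists the Ets difference was 3.02 (exact p = 0.156), and over all distal regions it was 1.53, higher in 5 of 6 lists.

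For the Sox motif, with 357 members, the difference in rank was 0.514 points (SD 1.67, higher in 4 of 6 lists, exact sign-flip p = 0.406, adjusted p = 0.643). This lay within the spread between lists, and it does not show that members with and without the motif are equally high. Six2 gave -0.648 (SD 2.89), Tead -0.743 (SD 1.05) and Grhl -0.708 (SD 5.02), with exact unadjusted p of 0.562, 0.188 and 0.938. The Sp motif gave 9.21 points over all distal regions, higher in 6 of 6 lists, but -0.902 among members, with 3 lists on each side of 0. In both E12 lists members with a Six2 motif were higher, by 1.72 and 3.18 points, and in all 4 later lists they were lower, by -0.306 to -4.99 points, and the difference between stages was not tested.

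**Figure D4:**
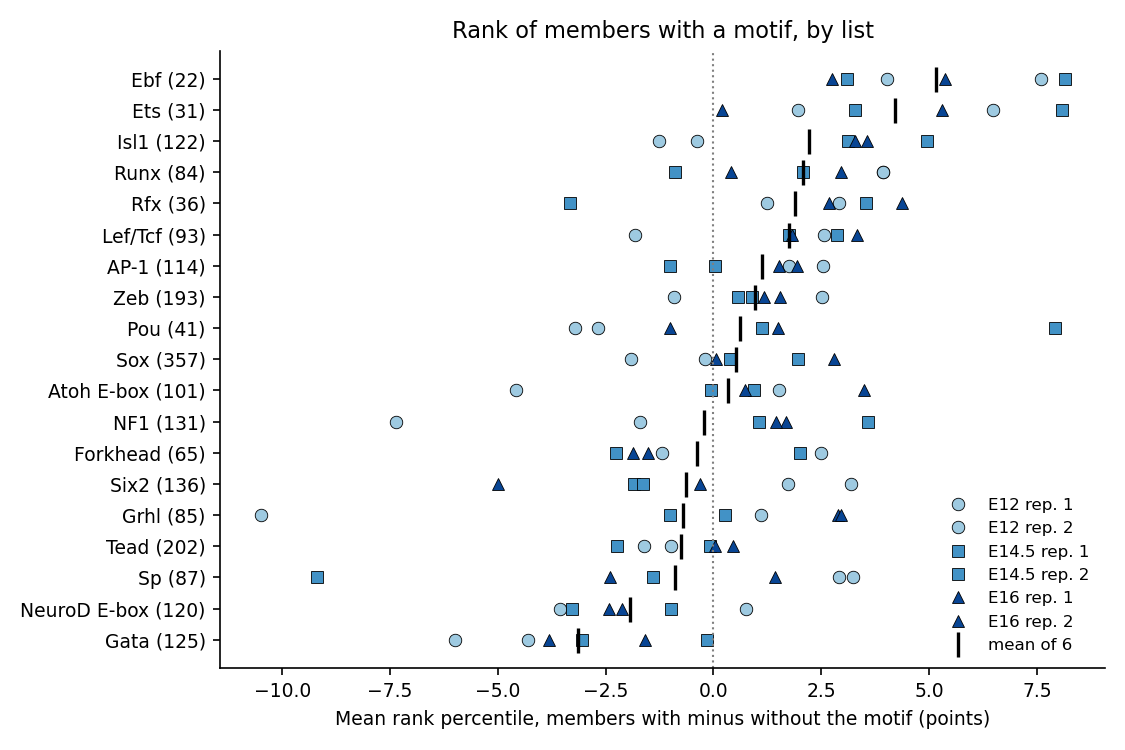
Mean rank percentile of members with a motif minus that of members without it, in each Sox2-EGFP+ list (circles E12, squares E14.5, triangles E16), with the mean of the 6 lists as a bar; the number of members with the motif follows its name. Gata differences all lie below 0 (mean -3.15) and Ebf and Ets differences all above it (5.16 and 4.22).

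The 6 members with the best mean rank over the lists lay near genes of varied function. Besides the regions near Dip2b, Trpv4 and Nck2, they were an intergenic region 31.6 kb upstream of Noxa1, an activator of NADPH oxidase (chr2:24981435-24983052), an intronic one with a centre 12 kb from the start of Shc4, a signalling adaptor (chr2:125510640-125512082), and one in an intron of Pls1, a plastin that bundles actin in hair cell stereocilia (chr9:95714036-95715253), 1.18 kb downstream of its start. The Pls1 region had a fold enrichment of 8.99 and 9.91 at E12, 8.99 and 8.05 at E14.5, and 9.54 and 7.63 at E16, so that the stages overlapped by fold enrichment. By percentile E12 and E16 did not overlap, with 96.9 and 98.7 at E12, 94.4 and 98.7 at E14.5, and 89.5 and 88.3 at E16. The Noxa1 region, with a Sox match 25 bp from the summit, ran from 92.2 to 99.1. None of the 6 had more than 2 of the 5 motifs, and the windows of the regions near Nck2, Shc4 and Pls1 held none.

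Members were nearest to 1425 protein-coding genes, against 12860 genes for all distal regions. Of the 1425, 1210 had 1 member, 166 had 2, 35 had 3 and 14 had 4 or more. By groups within 10 kb of each other, 73 members (4.28%) stood in 35 groups of 2 or 3. The same share was not taken for all distal regions, so it shows neither grouping nor scatter beyond theirs. The gene with the most members was Slc39a11, a zinc transporter gene, with 6 of its 27 distal regions, and 5 of the 6 lay between 306 and 382 kb from its start, on the side of Sox9. Their distances from the Sox9 start were 399, 404, 437, 447 and 475 kb, and that of the sixth was 655 kb. Zmiz1, which encodes a transcriptional coactivator, had 5 of 48 distal regions. The other 12 genes had 4 members each: Notch1 with 4 of 12 distal regions, Ptpre, a receptor-type phosphatase gene, with 4 of 11, 2010300C02Rik with 4 of 9, Lmx1a with 4 of 17, Tnp1 with 4 of 20, Sipa1l1 with 4 of 25, 2010111I01Rik with 4 of 26, Tiam1 with 4 of 30, Sox4 and Zfp36l1 with 4 of 33 each, Sox2 with 4 of 36 and Kirrel3 with 4 of 39. Genes with long flanks hold more regions of any kind, and 3.17% of all distal regions were members. The nearest gene was taken over protein-coding starts. Over all annotated transcript starts, long noncoding ones included, the numbers for Slc39a11, Zmiz1 and Sox2 were all 0, since other transcripts start nearer.

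The Slc39a11 region at chr11:113093028-113093794 had a fold enrichment of 9.57 and 8.04 at E12, 15 and 6.42 at E14.5, and 9.23 and 14.6 at E16. It was the best-ranked of the 6, with a mean percentile of 93.2. By fold enrichment the replicates of both later stages differed more from each other than the E12 pair. Lmx1a encodes a LIM homeodomain factor that shapes the border between sensory and nonsensory epithelium, and 3 of its 4 members lay 189 to 215 kb downstream of its start. The one at chr1:169807902-169808860 had a fold enrichment of 11.8 and 5.56 at E12, 11.4 and 8.22 at E14.5, and 11.2 and 10.1 at E16, with a mean percentile of 91.3. Its window held none of the 5 motifs, while 2 of the other 3 held a Sox match and 1 a Gata match. The best-ranked region of Tiam1, an activator of Rac, was intronic (chr16:89863258-89864108) and had a fold enrichment of 9.60 and 6.56 at E12, 12.5 and 6.34 at E14.5, and 9.11 and 8.72 at E16.

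Prosensory regulators, a list of 28 genes of which 27 were in the annotation, were nearest to 19 members (1.11%, 0.714 to 1.73), against 0.652% of all distal regions and 0.776% of regions in Sox2-EGFP- lists alone, the second within the members' interval. With all annotated transcripts in place of protein-coding ones the shares were 0.645% and 0.299%. Members lay near 11 of the 27: Sox2 had 4, Irx3 had 3, Eya1, Gata3 and Prdm16 had 2 each, and Emx2, Irx5, Isl1, Mycn, Sall1 and Sox9 had 1 each. The Sox9 region (chr11:112572534-112573667) was the best-ranked of the list, with a fold enrichment of 6.60 and 6.43 at E12, 7.49 and 6.23 at E14.5, and 8.49 and 5.72 at E16, which overlapped between stages. The Prdm16 region, 50.1 kb downstream in an intron of this zinc-finger regulator, had 8.77 in E12 replicate 1, 9.27 and 5.02 at E14.5, and 6.75 and 7.91 at E16, and a Sox match. The Sox2 member present in all 6 lists lay 117 kb upstream of Sox2 (chr3:34431206-34431901), with a fold enrichment of 8.25 and 6.45 at E12, 16.7 and 4.89 at E14.5, and 13.3 and 9.32 at E16. The other 3 Sox2 members lay 390 to 464 kb downstream and lacked a peak in E12 replicate 2. The Gata3 region at chr2:9817445-9818197, 6.16 kb upstream of Gata3, had a Six2 match and a fold enrichment between 4.82 and 9.67 over the 6 lists, with a median of 6.02.

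Beside Notch1, the signalling genes of the lists had 3 members or fewer each. Of 18 Fgf pathway genes in the annotation, 6 had 1 member each, 0.352% of members against 0.299% of all distal regions. The region 17.2 kb downstream of the start of Spry1, a feedback inhibitor of Fgf receptor signalling, held a Tead and a Sox match and had a fold enrichment of 6.10 in E12 replicate 1, 9.36 and 3.99 at E14.5, and 7.36 and 7.09 at E16. The region 24.6 kb downstream of Fgf8, a ligand made by inner hair cells, held 2 Sox matches and had a peak in all 6 lists, from 3.97 to 9.30. The region nearest to Fgf20, a ligand of the prosensory domain, lay 135 kb downstream and lacked a peak in E12 replicate 1, with a fold enrichment of 6.79 in E12 replicate 2. Bmp and Wnt pathway genes were nearest to 17 members (0.996%, against 0.674% of all distal regions), with 3 at Tcf7l2, a nuclear partner of beta-catenin, and 2 each at Axin2, Dkk3 and Inhba. The region 11.3 kb upstream of Dkk3 was the best-ranked of this list, with 8.33 in E12 replicate 1, 14.6 and 6.62 at E14.5, and 10.7 and 10.4 at E16. The region 18.1 kb upstream of Fst, which encodes the activin antagonist follistatin, had a peak in all 6 lists, with 8.42 and 7.37 at E12, 12.9 and 6.10 at E14.5, and 9.27 and 10 at E16.

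Genes of epithelial adhesion and identity had 11 members near 9 of 25 genes, 0.645% of members (0.36 to 1.15) against 0.214% of all distal regions and 0.107% of regions in Sox2-EGFP- lists alone. Members made up 9.57% of the list's 115 distal regions, the highest share among the 13 lists, and 3.17% of all distal regions. Grhl2 and Marveld3 had 2 members each, and Grhl1, Esrp1, Esrp2, Itga6, Krt8, Ovol2 and St14 had 1 each. The intronic Ovol2 region, near a zinc-finger gene of epithelia, held Sox and Gata matches and had a fold enrichment of 5.94 and 5.05 at E12, 14.1 and 5.56 at E14.5, and 7.92 and 12.3 at E16. The region 34.7 kb upstream of Grhl2 had 4.25 in E12 replicate 1 and between 5.75 and 12.4 in the 4 later lists, all above the E12 value, with no peak in E12 replicate 2.

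For markers of later cell types and of other tissues the counts were small, and the shares lay on either side of those of all distal regions. Hair cell genes had 3 members (0.176%, against 0.260% of all distal regions), near Myo6, Six2 and Ikzf2, and supporting cell genes had 2 (0.117% against 0.195%), near Gjb6 and Slc1a3. The Myo6 region, 25.1 kb from the start of this unconventional myosin gene, had a fold enrichment of 7.14 and 5.42 at E12, 10.7 and 8.26 at E14.5, and 10 and 6.81 at E16. Genes of the nonsensory cochlear epithelium had 5 (0.293% against 0.21%), of which 4 were the Lmx1a regions and 1 lay near Tecta, a component of the tectorial membrane. Genes of otic neurons had 4 (0.234% against 0.202%), shared in part with the prosensory list through Gata3 and Isl1, with the other near the neurotrophin receptor gene Ntrk3. Genes of glia and Schwann cells had 3 (0.176%, 0.0598 to 0.516, against 0.0836%), near Egr2, Mbp and Ednrb. Members made up 6.67% of the 45 distal regions of the glia list, a share below only that of epithelial adhesion, and 3.17% of all distal regions. Otic mesenchyme genes had 3 (0.176%, against 0.230% of all distal regions and 0.696% of regions in Sox2-EGFP- lists alone), near Col2a1, Foxc2 and Tbx18. None of the members was nearest to a macrophage or endothelial gene of the lists, which allows shares of up to 0.176% each (3 counts of 1706), and the shares over all distal regions were 0.0446% and 0.156%. Glia of the cochlea can also express Sox2, and the study removed cochlear nerve tissue by dissection to keep them out. The part of any that remained was not tested.

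Between E12 and E16 the position of members within the lists can be followed for the 491 regions with a peak in all 6. Both E12 percentiles lay below both E16 percentiles in 186 of them (37.9%) and above in 21 (4.28%), with a median difference of the means of 19.8 points. Among the 680 distal regions with all 6 Sox2-EGFP+ lists and a Sox2-EGFP- peak, 64.6% lay below and 1.91% above, with a median of 25.5 points. The lists at E16 were longer than those at E12, and a longer list holds more weak peaks below a given region, so a general difference in this direction cannot be told apart from list length. These values describe the peaks that chose the members and carry no test.

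The 3 largest differences towards E16 were at regions near Smoc2, Atp2a2 and Rnpc3. The region in an intron near Smoc2, which encodes a secreted matrix protein (chr17:14508742-14510211), had percentiles of 22.4 and 7.86 at E12 and 95.8 and 93.8 at E16, with a fold enrichment of 4.95 and 4.35 at E12, 10.7 and 5.74 at E14.5, and 11 and 8.54 at E16. The region 8.87 kb upstream of Atp2a2, the gene of a calcium pump of the endoplasmic reticulum, had percentiles of 4 and 9 at E12 and 66.8 and 91.2 at E16. The region near Rnpc3 had 3.31 and 17.6 at E12 and 76.4 and 85.5 at E16, and held a Sox and a Tead match. In the other direction stood regions near Rab11fip2, Prkd1 and Zfp36l1. The intergenic region 318 kb from the start of Prkd1, a protein kinase D gene (chr12:52068215-52069036), had percentiles of 96.1 and 94.7 at E12, 91.8 and 93.6 at E14.5, and 59.1 and 63.6 at E16. Its fold enrichment was 9.32 and 8.33 at E12, 10.9 and 7.02 at E14.5, and 7.11 and 6.65 at E16. The region 147 kb from Zfp36l1, which encodes a factor of mRNA decay, had a fold enrichment of 6.63 and 6.34 at E12, 5.99 and 3.60 at E14.5, and 3.81 and 3.90 at E16, so every later value was below both E12 values. The region near Rab11fip2 had percentiles of 65.5 and 54.1 at E12 and 10.7 and 38.6 at E16.

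**Figure D5:**
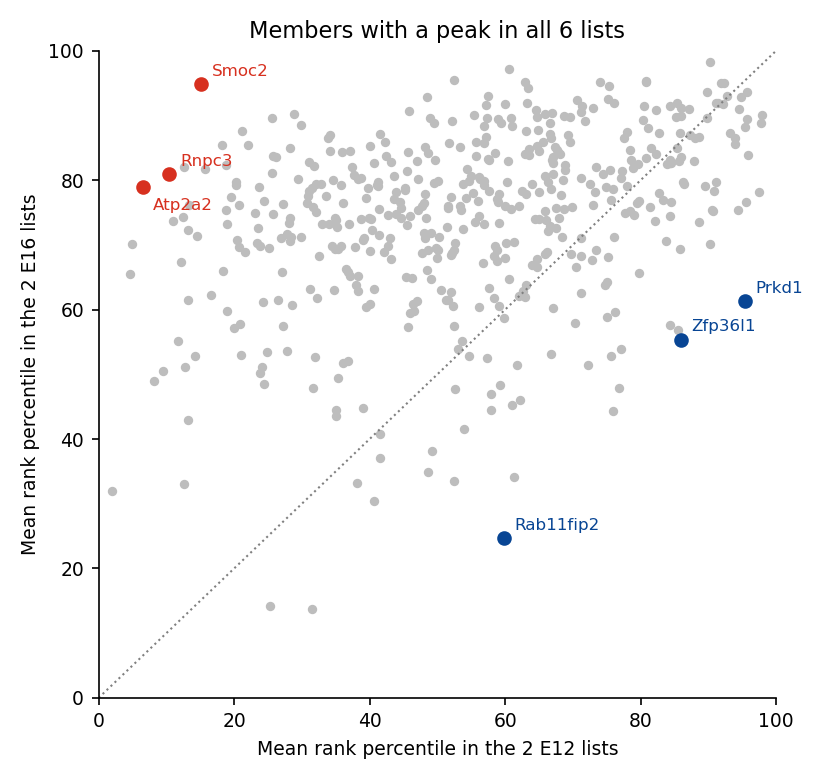
Mean rank percentile of the 491 members with a peak in all 6 lists, in the E12 lists (x axis) and in the E16 lists (y axis); each point is a region, the dotted line marks equal values, and the 3 largest differences in each direction, with no overlap between replicates of the stages, are named by the nearest gene. Most points lie above the line (median difference 19.8 points), with Smoc2, Atp2a2 and Rnpc3 at the upper left and Prkd1, Zfp36l1 and Rab11fip2 at the lower right.

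A list of 56 enhancers and promoters with reported activity in the inner ear, compiled by the study from the literature, was set beside the members by position. Of these, 31 overlapped a distal region and 6 overlapped a member, at 5 members. Both regions near Sox10, the gene of a Sox factor of the otic epithelium and of glia, are among them: one upstream of Pick1 (chr15:79042956-79044024) with a fold enrichment of 9.51 and 6.16 at E12, 10.6 and 4.46 at E14.5, and 9 and 8.52 at E16, and one nearest to Polr2f (chr15:78981998-78983852), 1855 bp wide, with 4.66 and 4.24 at E12, 5.66 and 3.88 at E14.5, and 4.37 and 4.27 at E16. The Polr2f region held a Sox match 24 bp from its summit. The other 3 lay in introns near Klhl29, Slc25a13 and G430095P16Rik. The last of these, in all 6 lists, held a Sox match and a facing pair of Sox cores. The share of all distal regions that overlap an element was not taken, so these counts carry no comparison.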

How the data were processed

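Peaks of 9 ATAC-seq samples were analysed as deposited, 1 narrowPeak list each. Per the study's methods and the submitters' processing notes, reads were trimmed (Trim Galore), aligned to mm9 (Bowtie2), freed of duplicates (Picard, SAMtools) and peaks were called per sample (MACS2), and the authors kept peaks found again in another sample of the same cell type (BEDOPS, with bedtools for merging). Versions are not given in the sources used here. The deposited values are a fold enrichment over background (a ratio), a -log10 p-value and a -log10 q-value, an integer score that the authors' peak caller derived from q, and the summit offset. The score was not used. The lists hold no read depth. The study states reads per library, which were lowest at E12. They were not used here, and list length stands beside the results.

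Merging, presence and distances were computed with Python 3.11.15, numpy 2.4.6, pandas 2.3.3, scipy 1.17.1 and pysam 0.24.0 on GENCODE vM1 and the mm9 genome, and were tested on simulated data against bedtools 2.31.1. The highest peak of a list in a region gave its values. Rank percentiles were taken within a list by -log10 p. Of 20 motifs, with consensus sequences taken from the study's table of known motifs, both strands were searched. Ebf and Ctcf motifs, of 10 and 12 letters, are named only. Wilson intervals (95%) were used for shares, and a limit of 3 counts where the count was 0. Regions were named by a rule: the 6 best mean percentiles, genes with most members (a tie at 4 gave 14 genes), up to 3 members per gene list, the 3 largest differences between E12 and E16 each way, overlaps with otic elements, and 3 of the 10 members with most motifs, by mean percentile. The facing Sox pairs lie outside this rule and were looked at after the sequences were seen. The members, lists and tests were chosen with earlier results of these data known. Both E16 replicates numbered 1 were 1 batch and the other 7 samples another. Sox2-EGFP+ replicates are separate litters, so the sign-flip p-values measure the spread between these 6 lists, which rank the same regions.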

Additional observations from a re-analysis of the deposited data

Results flagged for a closer look

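Of 57 sets of 6 values, 1 for each Sox2-EGFP+ list, 3 had a value far from the others by Dixon's criterion, and chance gives about 1 in 20. E12 replicate 2 held 760 members, far below the other 5 lists. Presence in lists chose the members and E12 replicate 2 was the shortest list, so this count is no separate observation. In the same list members with a Grhl motif ranked lower than the others, by -10.5 points, while the other lists gave differences from -1.01 to 2.96. The intronic region near Ptpre at chr7:142763682-142764290 had a fold enrichment of 12.6 in E14.5 replicate 1, against 3.85 to 6.03 in the other 5 lists.

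Over the 21 pairs of stages for 7 motifs, 6 had rank differences of opposite sign in all lists of both stages. These differences between stages were not tested. With so few lists per stage, opposite signs can also arise by chance, and pairs of the same motif share lists. Some signs rest on small values, such as 0.0611 for Sox in E16 replicate 1. For Tead they include 0.028 in E16 replicate 2 and -0.086 in E14.5 replicate 1. The difference for members with a Sox motif was 2.22 points higher at E14.5 and 2.49 points higher at E16 than at E12. For the Six2 motif the changes from E12 were -4.2 points at E14.5 and -5.1 points at E16. For the Tead motif the difference at E16 stood 1.54 points above that at E12 and 1.4 points above that at E14.5.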

How the results depend on the processing

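The number of core regions stayed within 1.5 times 1706 in 13 of 16 alternatives. It was 764 at a -log10 q of at least 5 and ranged from 1706 to 5184 when each library was left out, the highest without E12 replicate 2. In batch 2 alone, without both E16 replicates numbered 1, it was 1814. The half-overlap alternative gave 1706, since every peak lies within its merged region. Leaving out 1 Sox2-EGFP- list gave 1706 or 1707, since the peaks kept in these lists recur in another of them. These alternatives could hardly differ from 1706, so the tally of 13 shows little about stability. The 1810 regions without the 3 libraries with contradictory tags belong to an alternative chosen after seeing the data. Motif shares of members in 200 bp were 16.2% (Sox), 4.81% (Six2), 4.75% (Gata), 9.32% (Tead) and 3.99% (Grhl), with 1 mismatch 83.5%, 56.5%, 56.9%, 63.5% and 47.6%, around the region centre 18.5% for Sox, and among members in all 6 lists 3.87% for Grhl. The share near prosensory regulators was 0.645% over all transcript starts.

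The rank test could not show stability of its calls, since with 1 list left out its smallest exact p is 0.0625. The direction reversed by fold enrichment for Tead (0.539) and Ebf (-0.171), among members in all 6 lists for Grhl (0.494) and Ebf (-0.435), and with lists left out for Six2 (-1.41 to 0.22, above 0 without E16 replicate 1) and Grhl (-1.44 to 1.24, above 0 without E12 replicate 2). The causes were not tested. Averaging lists by replicate number, as a replicate block, keeps the Gata difference at -3.15 by construction and gives no test. The means by number differed in sign for Six2 (-1.71 and 0.409) and Grhl (1.42 and -2.84). The short E12 lists limit what absence from them shows, and so does the restriction of the Sox2-EGFP- lists to peaks found again.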
